A study of Mus musculus with 6 samples.

Results

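Imprinted genes are expressed mainly from the copy inherited from 1 parent, and 35 of them that lie outside the Dlk1-Dio3 domain were followed here in RNA from heart ventricles of mouse embryos at stage E12.5. The 35 genes were taken by name, each symbol was tied to an Ensembl ID through the GENCODE M21 annotation, and all 35 were among the 54532 genes of the deposited table. The samples were 3 control libraries (genotype label CTL) and 3 libraries of LSD1 conditional knockout ventricles (genotype label LSD1-KO), LSD1 being the histone demethylase encoded by Kdm1a. The Cre driver, the floxed alleles, the strain, and whether each library is 1 embryo or a pool were not stated in the labels, so p-values measure only the scatter among these samples, part of which may be technical.

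Imprinting rests on DNA methylation set in the egg or the sperm at control regions and kept through the divisions of the embryo. The methylated copy of a control region is bound by the zinc finger protein ZFP57, which recruits TRIM28 and histone methyltransferases, while the other copy is free of the mark. A control region often acts over a cluster of neighbouring genes, some of them expressed from the father's copy and some from the mother's. Many imprinted genes act on growth of the embryo and placenta: paternally expressed genes such as Mest, Peg3 and Plagl1 and maternally expressed genes such as H19, Cdkn1c, Phlda2 and Grb10 are the best known examples. LSD1 removes methyl groups from histone H3 lysine 4, and its relative KDM1B is needed in the oocyte for setting some maternal imprints. The RNA values used here do not separate the parental copies, so a level is the sum of both.

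Of the 35 genes, 19 were classed as paternally and 15 as maternally expressed from textbook knowledge of the tissues where each is imprinted, and Gnas, whose transcripts differ in parental origin, was put in neither class. For Ube3a, Copg2, Ppp1r9a, Asb4, Calcr, H13, Ascl2 and Slc22a3 the imprint is known from some tissues or transcripts only, and whether it holds in the ventricle was not tested. The genes fell into 16 imprinted domains on 8 chromosomes, with 16 genes on chromosome 7 and 8 on chromosome 6.

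Levels are the authors' FPKM, which divide fragments by gene length and a factor for each library, so they can be compared between genes. A filter on the mean FPKM (0.5 or more) left 14149 genes, which limma tested two-sided on the log2(FPKM + 1) scale, and a gene was called at a Benjamini-Hochberg adjusted p under 0.05 over all of them. Each library held between 17898946 and 20076028 reads, as recovered from the steps of the FPKM values. Kdm1a stood at 29.99, 29.7 and 22.8 FPKM in the control libraries and at 10.7, 11.8 and 10.96 FPKM in the knockout libraries (log2 change -1.22, SE 0.11, limma adjusted p = 0.00274). Cend1, the gene in the series title, was 3.23 times higher in the knockout (limma adjusted p = 0.00159). Knockout replicate 3 had 12.1 FPKM of Xist and no Ddx3y reads and knockout replicate 1 had 1.11 FPKM of Xist with Ddx3y, whereas the other 4 libraries had Ddx3y and at most 0.0125 FPKM of Xist, so the groups also differ in sex. Control replicate 3 stood apart from the other control libraries on the second principal component of all tested genes (-20.7 against 5.62 and 8.9). Its summed mesenchyme and erythroid markers, at 509 and 15051 FPKM, were the highest of the control libraries. So were its endothelial and neural crest markers, at 147 and 44.5 FPKM. Its cardiomyocyte markers were the lowest, at 3019 FPKM against 4137 and 3869 FPKM in control replicates 1 and 2.

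The 35 genes ranged from no reads to among the highest levels of the table. H19, a long non-coding RNA, was the sixth most abundant gene of the control libraries and made up 1.19% to 1.37% of a library's FPKM sum. Its level was 4841, 4680.45 and 5566 FPKM in control replicates 1 to 3 and 5097, 5048 and 5059.8 FPKM in the knockout replicates. Cdkn1c, which encodes the cell cycle inhibitor p57, followed at 436 ± 36.9 FPKM in control, then Mest at 314 ± 12.8 and Grb10, an adaptor that dampens insulin and growth factor signalling, at 167 ± 21.5 (SD, n = 3 each). Plagl1, Nnat and Ndn came next at 54.6 ± 7.05, 51.7 ± 6.13 and 49.6 ± 3.97 FPKM, and these 3 lay within their spread of each other. At the other end, 11 members had a control mean under 1 FPKM. Between control libraries the tested members had a median coefficient of variation of 8.44%, from 0.927% for H13 to 104% for Phlda2.

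**Figure D1:**
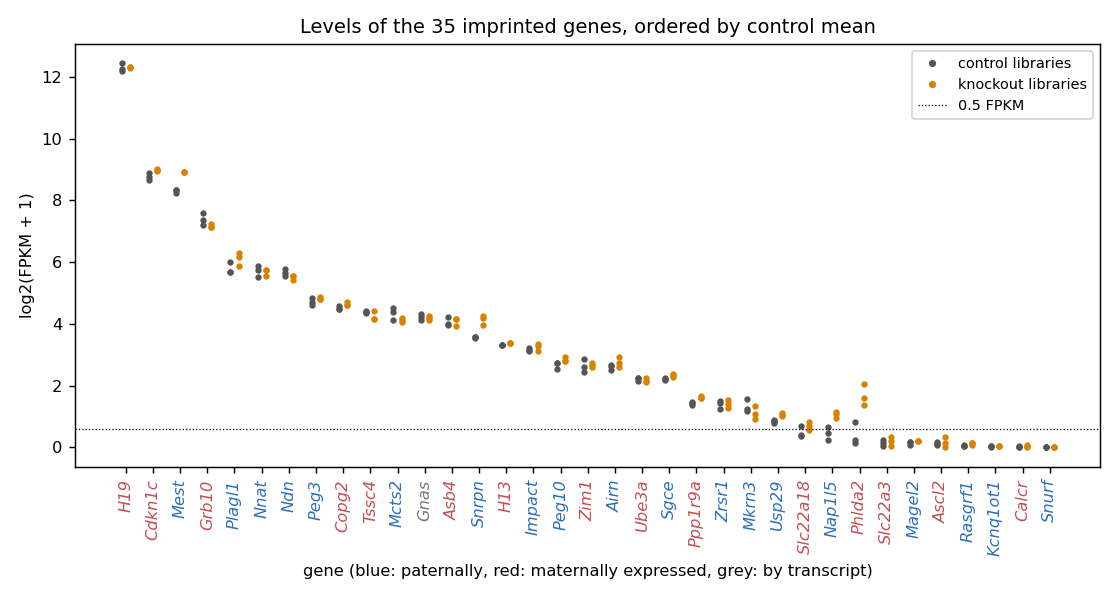
Level of each of the 35 imprinted genes as log2(FPKM + 1) in the 3 control (grey) and 3 knockout (orange) libraries, 1 point per library, ordered by control mean; the dotted line marks 0.5 FPKM. H19 stands at the top, the 7 genes under the filter are at the right, and the knockout points of Mest, Snrpn, Nap1l5 and Phlda2 lie above their control points.

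Of the 28 members tested, 3 rose in the knockout (Mest, Snrpn and Phlda2) and 0 fell. With libraries left out singly the call of Mest held in all 6 fits, that of Snrpn in 2 and that of Phlda2 in 1. Those of Snrpn were the fits without control replicate 3 and without knockout replicate 3. With a sex score (Xist minus Y-linked genes) as covariate Snrpn was called, while Mest (limma adjusted p = 0.0546) and Phlda2 (0.133) were not. Over all genes tested, 1.91% were called higher and 0.466% lower, or 2.37% in either direction. Without adjustment 7 of the 28 had a limma p under 0.05, all with a positive change, against 16.1% of all genes tested (8.67% higher and 7.4% lower). The 4 further genes were Nap1l5, Plagl1, Cdkn1c and Ppp1r9a. Each knockout library lay above each control library for 11 members and below for 0, against 11% and 10.4% of all genes tested. The median log2 change of the tested members was 0.10, against -0.01 over all genes tested. Phlda2, Nap1l5 and Slc22a18 had control means under 0.5 FPKM and entered the test through their knockout values. Among the other 25 members 2 were called higher, 9 had each knockout library above each control library, and the median log2 change was 0.07. The genes of the whole table with a control mean of at least 0.5 FPKM had 1.71% called higher, 10.3% with each knockout library above and a median of -0.02. In bulk RNA a change in the number of cells of a type and a change of RNA per cell cannot be told apart.

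**Figure D2:**
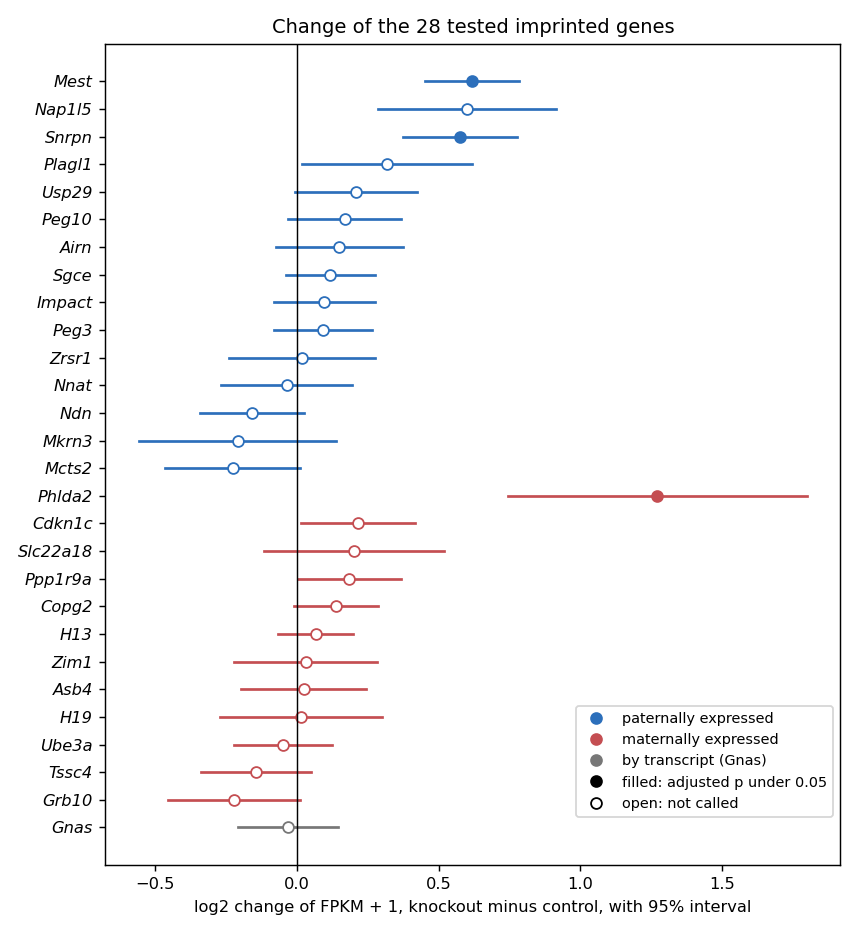
Log2 change of FPKM + 1 (knockout minus control, horizontal axis) with its 95% limma interval for the 28 tested imprinted genes, paternally expressed in blue, maternally expressed in red and Gnas in grey; filled points passed adjusted p under 0.05. The filled points are Mest (0.62), Snrpn (0.58) and Phlda2 (1.27), and most other intervals cross 0.

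The 250 bases before a start of each called gene and of Nap1l5, which missed the threshold, are shown because a control region or promoter is where the parental marks of these domains act. They were read from RefSeq (GRCm38.p6) and are printed 5′ to 3′ along the gene. Capitals mark the hexamer TGCCGC, the core of the ZFP57 motif, or its reverse complement GCGGCA. The Mest stretch, at the most downstream of its 3 RefSeq starts, is chr6:30737803-30738052 (plus strand), the Snrpn stretch, taken at the 1 of its 4 RefSeq starts that Snurf shares, chr7:60005200-60005449 (minus), the Phlda2 stretch chr7:143502525-143502774 (minus) and the Nap1l5 stretch chr6:58907127-58907376 (minus). The Mest, Snrpn and Phlda2 starts lie inside the GENCODE gene models, which extend further upstream.

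Mest: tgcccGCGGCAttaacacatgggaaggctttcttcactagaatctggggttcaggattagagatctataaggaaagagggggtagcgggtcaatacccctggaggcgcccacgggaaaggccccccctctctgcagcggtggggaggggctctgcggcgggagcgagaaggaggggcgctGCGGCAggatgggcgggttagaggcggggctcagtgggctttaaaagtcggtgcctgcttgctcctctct
Snrpn: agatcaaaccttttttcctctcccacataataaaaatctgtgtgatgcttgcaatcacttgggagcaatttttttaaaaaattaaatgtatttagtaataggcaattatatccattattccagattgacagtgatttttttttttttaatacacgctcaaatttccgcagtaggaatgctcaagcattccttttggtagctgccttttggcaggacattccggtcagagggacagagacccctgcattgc
Phlda2: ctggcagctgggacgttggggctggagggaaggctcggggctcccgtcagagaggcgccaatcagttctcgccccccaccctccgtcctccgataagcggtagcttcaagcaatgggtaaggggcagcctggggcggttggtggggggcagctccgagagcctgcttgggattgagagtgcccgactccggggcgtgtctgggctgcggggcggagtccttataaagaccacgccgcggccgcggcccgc
Nap1l5: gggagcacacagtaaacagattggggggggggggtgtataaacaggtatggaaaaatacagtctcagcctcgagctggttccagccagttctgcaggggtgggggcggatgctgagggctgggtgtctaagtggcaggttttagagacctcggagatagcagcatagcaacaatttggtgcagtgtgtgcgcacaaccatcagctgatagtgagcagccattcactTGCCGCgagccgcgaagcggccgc

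The Mest stretch held the hexamer at 2 places, beginning 245 and 70 bases before the start, and Nap1l5 held it at 1, 24 bases before the start, while the Snrpn and Phlda2 stretches held it at none. The stretch of the most upstream Mest start held it at 0 places, as did all 4 of Snrpn. Searched on both strands, with no other motif, the hexamer occurred in 8.68% of the 32851 RefSeq stretches of this length, and at 2 or more places in 0.874%. RefSeq stretches were at hand for 30 of the 35 members (not for H19, Cdkn1c, Peg10, Sgce and Impact). At least 1 hexamer was found for 7 of the 30 genes (Mest, Nap1l5, Plagl1, Mcts2, Copg2, Zim1 and Calcr), or 23.3%, against 9.84% of all gene symbols with an entry. By class these were 4 of 16 paternally and 3 of 13 maternally expressed genes. The number of CpG sites was 14 for Mest, 3 for Snrpn, 21 for Phlda2 and 10 for Nap1l5, with a median of 6 over all stretches and of 11 over the 42 stretches of members. The share of all stretches with fewer CpG sites was 70.6% for Mest, 29% for Snrpn, 83.7% for Phlda2 and 62.2% for Nap1l5. A match is a string of letters and not a measured binding site.

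Mest had the smallest p of the 28 members. It encodes an enzyme of the alpha/beta hydrolase fold found in mesoderm and adipose tissue, is paternally expressed, and lies on chromosome 6 from 30723547 to 30748465 on the plus strand. Its level was 299.583 FPKM, 322 and 321 in the control libraries and 479.701, 481 and 488 in the knockout libraries. The groups were far apart and the libraries within each were close. The mean went from 314 ± 12.8 to 483 ± 4.47 FPKM (SD, n = 3 each). This is 1.54 times the control level (limma: adjusted p = 0.00644, log2 change 0.62, SE 0.07, 95% interval 0.45 to 0.79). By exact permutation of the libraries (two-sided) Mest, Snrpn and Phlda2 each gave p = 0.1, the least that 3 against 3 can reach. The call held in all 6 fits with a library left out and was lost with the sex score of the libraries as a covariate (log2 change 0.61, adjusted p = 0.0546; over the 15 alternatives 0.000765 to 0.0546). Without knockout replicate 3, the library with most Xist, the log2 change was 0.61. Exons of Copg2, transcribed from the other strand, cover 23.1% of the exon bases of Mest, and the library kit does not mark strand.

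Copg2, which encodes a subunit of the COPI vesicle coat and meets the end of Mest tail to tail, was at 21.4, 22.6 and 21.2 FPKM in control and 23.3, 23.5 and 25.3 FPKM in knockout libraries. All knockout libraries lay above the controls, and the difference was not called (ratio 1.11, log2 change 0.14, SE 0.06, limma adjusted p = 0.338). Exons of Mest cover 17.8% of the exon bases of Copg2, and whether Mest reads add to its level was not tested. Of 13 tested genes with any base within 500 kb of Mest, 1 was called, higher: Klf14, a maternally expressed zinc finger factor gene of the same domain, which also stands on the list of other imprinted genes below. The median log2 change of the 13 was 0.14, from -0.13 to 0.78. Over all genes tested the median was -0.01, and 1.91% were called higher. Cpa5, Cpa4 and 1700012C14Rik, among the 13, had control means of 0.47, 0.497 and 0.319 FPKM. They entered the test through their knockout values, and the median includes them. The same window held 18 tested genes around Phlda2, 5 around Nap1l5 and 1 around Snrpn, of which limma called 0. The windows were chosen after the calls were seen.

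**Figure D3:**
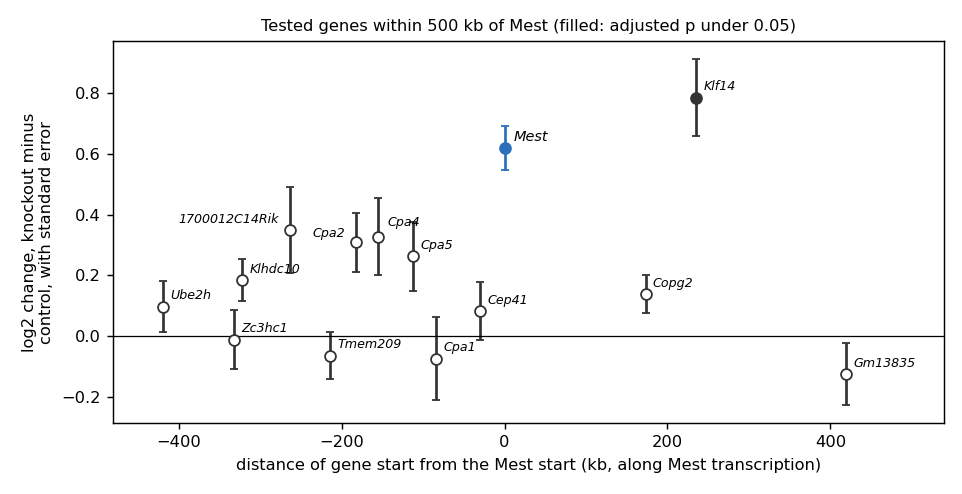
Log2 change (knockout minus control, with its standard error) of Mest (blue) and of the 13 tested genes within 500 kb, against the distance of each gene's start from the start of Mest in kb. Mest and Klf14 are the filled points that passed adjusted p under 0.05, at 0.62 and 0.78, while Copg2 (0.14) and the other genes lie lower.

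In the Prader-Willi and Angelman domain of chromosome 7, Snrpn rose while its tested neighbours were not called. Snrpn encodes SmN, a core protein of the splicing particles found mainly in brain and heart, and shares its start with Snurf. Its level was 10.5, 10.9 and 10.8 FPKM in the control libraries and 17.9, 17.4 and 14.4 FPKM in the knockout libraries. The knockout libraries were all above the controls, with replicate 3 the lowest of them. The mean rose from 10.7 ± 0.213 to 16.6 ± 1.85 FPKM (SD, n = 3 each), again 1.54 times the control level (limma: adjusted p = 0.0172, log2 change 0.58, SE 0.09). With libraries left out singly the Snrpn call held in 2 of 6 fits, those without control replicate 3 and without knockout replicate 3 (over the 15 alternatives the adjusted p was 0.00513 to 0.0807, and 10 of them called it). Without control replicate 1 the adjusted p was 0.0717, without control replicate 2 0.0599, without knockout replicate 1 0.0645 and without knockout replicate 2 0.0807. It also missed the threshold without the filter on low values (0.0591).

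Other exons cover 34.1% of the Snrpn exon bases, and Snurf, all of whose exon bases lie under Snrpn, is listed at 0 in all 6 libraries. The labels do not say how reads of overlapping genes were assigned. The tested neighbours Ndn, Mkrn3 and Ube3a had log2 changes below 0 and were not called. Magel2, under the filter, had each knockout library above each control library, at 12, 13 and 13 against 11, 5 and 11 reads. So did Gm38393 and Snhg14, also under the filter, on the strand of Snrpn and looked up after the values were seen. Gm38393, whose exons cover 27.3% of the Snrpn exon bases, had means of 0.365 FPKM in control and 0.593 in knockout libraries. Snhg14 had means of 0.172 and 0.24 FPKM. Being under the filter, Magel2 and Snhg14 were fitted in 1 alternative each and Gm38393 in 2, and none of these fits called them. Ndn, which encodes the growth-restraining protein necdin, was at 45.7, 49.4 and 53.7 FPKM in control and 45.4, 46.1 and 41.5 FPKM in knockout libraries (log2 change -0.16, SE 0.08, limma adjusted p = 0.379). Mkrn3, a ubiquitin ligase gene, had means of 1.51 ± 0.372 and 1.18 ± 0.34 FPKM (SD, n = 3 each; limma adjusted p = 0.546). Ube3a, the ubiquitin ligase gene of Angelman syndrome, imprinted in neurons, had means of 3.63 ± 0.205 and 3.48 ± 0.191 FPKM and a log2 change of -0.05 (95% interval -0.22 to 0.13), which turned to 0.02 after rescaling to TPM and to 0.01 after rescaling without haemoglobin and mitochondrial genes. These rescalings moved the median log2 change of all genes tested from -0.01 to 0.06 and 0.04, a shift of about the same size. Other exons cover 27.3% of its exon bases.

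In the Kcnq1 domain at the end of chromosome 7, Phlda2 rose from a level near the detection floor. Phlda2 encodes a small pleckstrin homology protein that restrains placental growth, is maternally expressed, and lies from 143501545 to 143503150 on the minus strand. Its level was 0.773, 0.10 and 0.185 FPKM in the control libraries, or 16, 2 and 4 reads, and 3.16, 1.61 and 1.998 FPKM in the knockout libraries, or 64, 35 and 40 reads. Control replicate 2 was below the floor of 3 reads, and knockout replicate 1 was the highest. The mean went from 0.353 ± 0.367 to 2.26 ± 0.807 FPKM (SD, n = 3 each), or 6.39 times the control level (limma: adjusted p = 0.0348, log2 change 1.27, SE 0.23). The ratio depended on control replicate 1, without which it was 15.8. With libraries left out singly the Phlda2 call held in 1 of 6 fits, that without control replicate 1, and over all 14 alternatives in 6. Its adjusted p was 0.104 without control replicate 2, 0.0711 without control replicate 3, 0.0919 without knockout replicate 1, 0.0599 without knockout replicate 2 and 0.10 without knockout replicate 3. It was 0.0546 with a pseudocount of 0.1, where the log2 change was 2.62, 0.121 without the filter and 0.133 with the sex score (range over alternatives 0.0111 to 0.133).

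Cdkn1c, of the same domain, was at 434, 400.424 and 474 FPKM in control and 518, 503 and 496 FPKM in knockout libraries. Each knockout library was above each control library, by little, and the gene was not called (ratio 1.16, log2 change 0.22, SE 0.09, limma adjusted p = 0.277). Exons of a predicted gene on the other strand cover 30.7% of its exon bases. Slc22a18, an organic cation transporter gene, had means of 0.407 ± 0.192 and 0.613 ± 0.149 FPKM, and Tssc4 of 19.9 ± 0.427 and 17.9 ± 1.98 FPKM (SD, n = 3 each), and neither was called (limma adjusted p = 0.517 and 0.438). Kcnq1ot1, the paternally expressed antisense RNA that silences the domain, stood at 0.0157 to 0.0317 FPKM in control and 0.0277 to 0.0361 FPKM in knockout libraries, under the filter on the mean. These low values per length come from 46, 26 and 57 reads in control and 51, 50 and 60 in knockout libraries over exons of 93092 bases, and without the filter the limma adjusted p was 0.89. Its host Kcnq1, a potassium channel gene, was at 4.08 ± 1.25 and 3.57 ± 0.604 FPKM (SD, n = 3 each; limma adjusted p = 0.757).

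H19 and Igf2, which share enhancers in a neighbouring domain of chromosome 7, were not called. H19 had a log2 change of 0.02 with a 95% interval of -0.27 to 0.30 (limma adjusted p = 0.968), its sign changed when control replicate 1 or 2 was left out, and control replicate 3 was the highest library. Igf2, the fetal growth factor gene, had means of 77.6 ± 0.302 and 77.9 ± 8.73 FPKM (SD, n = 3 each) and a log2 interval of -0.20 to 0.20, with 64.5% of its exon bases under other exons.

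**Figure D4:**
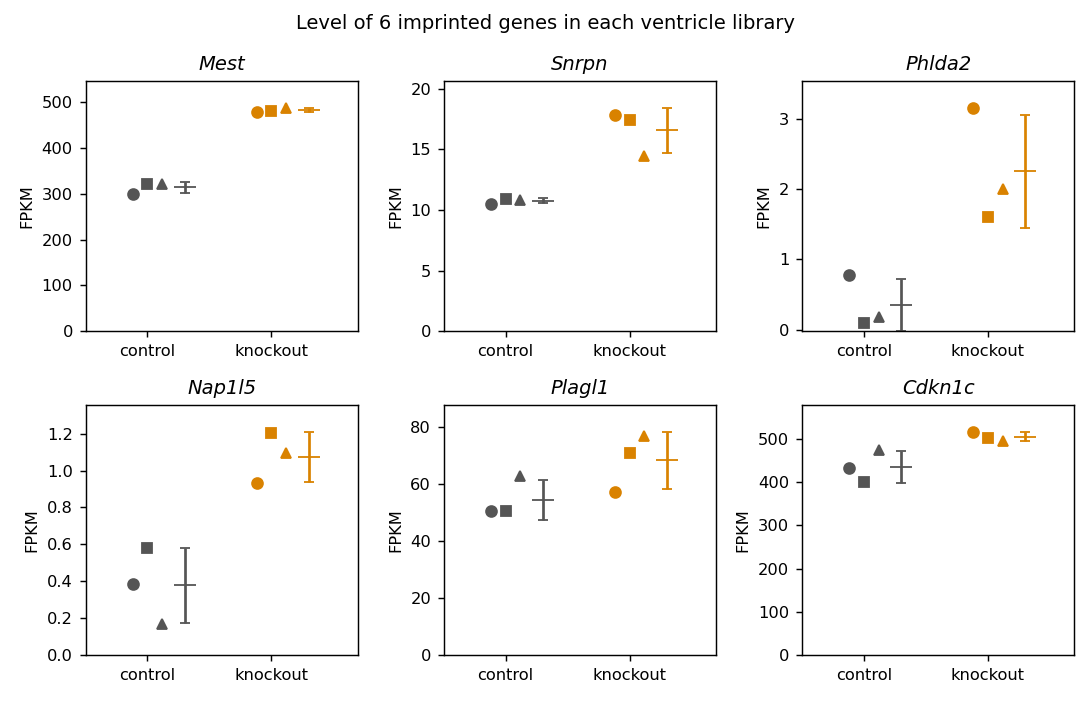
FPKM of Mest, Snrpn, Phlda2, Nap1l5, Plagl1 and Cdkn1c in each library (circle, square and triangle for replicates 1, 2 and 3), with the mean and SD of each group beside the points; each panel has its own scale. The knockout points lie above all control points in every panel but that of Plagl1, where 57.4 FPKM in knockout replicate 1 lies below 62.8 FPKM in control replicate 3.

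Plagl1, a paternally expressed zinc finger factor that regulates other imprinted genes, was at 50.5, 50.6 and 62.8 FPKM in control and 57.4, 71.1 and 77 FPKM in knockout libraries. The groups overlapped, since knockout replicate 1 was below control replicate 3 (ratio 1.25, log2 change 0.32, SE 0.13, limma adjusted p = 0.282). Nap1l5, a retrogene of the nucleosome assembly family in an intron of Herc3, was at 0.382, 0.579 and 0.169 FPKM in control and 0.93, 1.202 and 1.09 FPKM in knockout libraries. These are 13, 19 and 6 against 31, 43 and 36 reads, with all knockout libraries above the controls. The ratio of means was 2.85 (log2 change 0.60, SE 0.14, limma adjusted p = 0.0754), and no alternative called it (0.0545 to 0.243). Herc3, its host, was at 7.99 ± 1.37 and 6.39 ± 0.744 FPKM (SD, n = 3 each), a log2 change of -0.28 (limma adjusted p = 0.316).

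Grb10 was at 165, 189.6 and 147 FPKM in control and 139, 139 and 149 FPKM in knockout libraries. Knockout replicate 3 lay within the control range (ratio 0.853, log2 change -0.22, SE 0.10, limma adjusted p = 0.33). In the Peg3 domain, Peg3 itself, a large zinc finger protein gene, was at 25.6 ± 2.16 and 27.3 ± 0.742 FPKM and its maternally expressed neighbour Zim1 at 5.27 ± 0.902 and 5.37 ± 0.291 (SD, n = 3 each; limma adjusted p = 0.588 and 0.921). Usp29, a deubiquitinase gene divergent from Peg3, was at 0.866, 0.737 and 0.822 FPKM in control and 1.02, 1.08 and 1.18 FPKM in knockout libraries, with all knockout libraries higher (ratio 1.35, limma adjusted p = 0.322). Exons of other genes cover 14.8% of Usp29.

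All 4 tested members of the Peg10 domain of chromosome 6 had log2 changes above 0, and 0 were called. Over all genes tested 45.9% had a change above 0 and 2.37% were called. Tfpi2, Pon2 and Pon3, from the list of other imprinted genes below, also lie between Calcr and Asb4 of this domain. Tfpi2 was called higher (log2 change 0.40, limma adjusted p = 0.0418). Pon2 (log2 change 0.07) and Pon3 (-0.12) were not called, and the groups of Pon3 did not overlap. Peg10, derived from a retrotransposon and needed for the placenta, had means of 5.36 ± 0.507 and 6.14 ± 0.46 FPKM, and Sgce, which encodes a sarcoglycan of muscle and brain, of 3.62 ± 0.0868 and 4.02 ± 0.15 FPKM (SD, n = 3 each). Ppp1r9a, the neurabin gene, was at 1.6, 1.71 and 1.76 FPKM in control and 2.03, 2.01 and 2.14 FPKM in knockout libraries. For Peg10, Sgce and Ppp1r9a each knockout library lay above each control library, as for 11% of all genes tested. The adjusted p-values by limma were 0.386, 0.435 and 0.301. Asb4, a gene of embryonic vessels and placenta, had means of 15.8 ± 1.63 and 16.03 ± 1.44 FPKM (SD, n = 3 each), a log2 change of 0.02 that fell to between -0.01 and -0.02 when control replicate 1 or 3 or knockout replicate 1 or 2 was left out.

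Genes that sit inside the introns of other genes had values both above and below 0, as did their hosts, and none was called. Mcts2, a retrocopy of the X-linked translation factor gene Mcts1 in an intron of H13, was at 16.5, 19.97 and 21.9 FPKM in control and 17.05, 16.4 and 15.7 FPKM in knockout libraries, with overlapping groups (limma: adjusted p = 0.334, log2 change -0.23, SE 0.10). Reads that match both copies may have been divided or dropped, so its level is uncertain. H13, a signal peptide peptidase gene, was at 8.87, 8.94 and 9.03 FPKM in control and 9.32, 9.43 and 9.49 FPKM in knockout libraries. These narrow groups did not overlap, with a log2 change of 0.07 (95% interval -0.07 to 0.20, limma adjusted p = 0.621). Nnat, which encodes the membrane proteolipid neuronatin, had means of 51.7 ± 6.13 and 50.2 ± 3.69 FPKM, and its host Blcap of 9.02 ± 0.298 and 8.59 ± 0.241 (limma adjusted p = 0.899 and 0.668). Zrsr1, a retrocopy of a splicing factor gene, had means of 1.62 ± 0.249 and 1.66 ± 0.239 FPKM, and its host Commd1 of 5.22 ± 0.82 and 5.08 ± 0.228 (SD, n = 3 each; limma adjusted p = 0.953 and 0.933). Nnat changed sign under TPM and without haemoglobin and mitochondrial genes, where the median over all genes moved likewise, and under quantile normalization, as did Zrsr1.

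Airn, the paternally expressed RNA that silences Igf2r, was at 5.29, 4.69 and 5.24 FPKM in control and 5.03, 5.701 and 6.54 FPKM in knockout libraries, and Igf2r, the receptor that clears IGF2, at 40.8, 38.5 and 62.5 and at 42.9, 54.8 and 61.6 FPKM. The groups overlapped for both genes (log2 changes 0.15 and 0.18, limma adjusted p = 0.492 and 0.704). Impact, a regulator of translation under stress, had a ratio of 1.08 (limma adjusted p = 0.587). Gnas, the gene of the stimulatory G protein alpha subunit, had means of 17.7 ± 1.33 and 17.3 ± 0.972 FPKM (SD, n = 3 each; limma adjusted p = 0.883), a log2 change of -0.03 that was positive after rescaling to TPM (0.05) or without haemoglobin and mitochondrial genes (0.04), again by about the shift of the median over all genes. Exons of other genes cover 21.96% of Gnas, and its maternal, paternal and biallelic transcripts are summed.

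Paternally and maternally expressed members were compared as classes. Among 15 tested paternally expressed genes 2 rose, 0 fell and 11 had a change above 0, and among 12 maternally expressed genes 1 rose, 0 fell and 9 had a change above 0, while of all genes tested 1.91% were called higher, 0.466% lower and 45.9% had a change above 0. The median log2 change was 0.12 for the paternal and 0.05 for the maternal class. The mean log2 level of the paternal class was 3.48, 3.51 and 3.55 in the control libraries and 3.65, 3.68 and 3.69 in the knockout libraries. That of the maternal class was 4.32, 4.32 and 4.33 in control and 4.49, 4.46 and 4.45 in knockout libraries. In both classes the knockout libraries lay above the controls, by 0.16 and 0.14 on average. Over all genes tested the mean level was 2.97 to 2.98 in control and 2.98 in knockout libraries. The class counts, medians and means include Nap1l5 (paternal) and Phlda2 and Slc22a18 (maternal), which entered the test through their knockout values.

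Without the called Mest, Snrpn and Phlda2, the mean change was 0.09 for 13 paternally and 0.04 for 11 maternally expressed genes. The groups did not overlap, at 3.11 to 3.18 in control and 3.20 to 3.26 in knockout libraries for the paternal class and at 4.64 to 4.70 and 4.71 to 4.74 for the maternal class. Nap1l5 and Slc22a18, like Phlda2, had control means under 0.5 FPKM. Without Nap1l5 and Slc22a18 as well, the mean change was 0.05 (median 0.10) for 12 paternally and 0.03 (median 0.03) for 10 maternally expressed genes. The groups then overlapped in both classes, at 3.33 to 3.43 in control and 3.39 to 3.45 in knockout libraries for the paternal class and at 5.06 to 5.13 and 5.11 to 5.13 for the maternal class. These class values were described without a test, because the members of a class share domains and were not drawn at random. Domains that hold tested members of both kinds did not share 1 pattern. In the Mest domain the log2 change was 0.62 for the paternally expressed Mest and 0.14 for the maternally expressed Copg2. Klf14, a maternally expressed gene of this domain that is not a member of the classes, had a log2 change of 0.78 and was called higher. In the Peg3 domain it was 0.09 (Peg3) and 0.21 (Usp29) for the paternal and 0.03 (Zim1) for the maternal side. In the Peg10 domain it was 0.17 (Peg10) and 0.12 (Sgce) against 0.19 (Ppp1r9a) and 0.02 (Asb4). In the Snrpn domain it was 0.58 (Snrpn), -0.16 (Ndn) and -0.21 (Mkrn3) against -0.05 (Ube3a), and in the H13 domain -0.23 (Mcts2) against 0.07 (H13). Whether the sides of a domain differ was not tested.

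**Figure D5:**
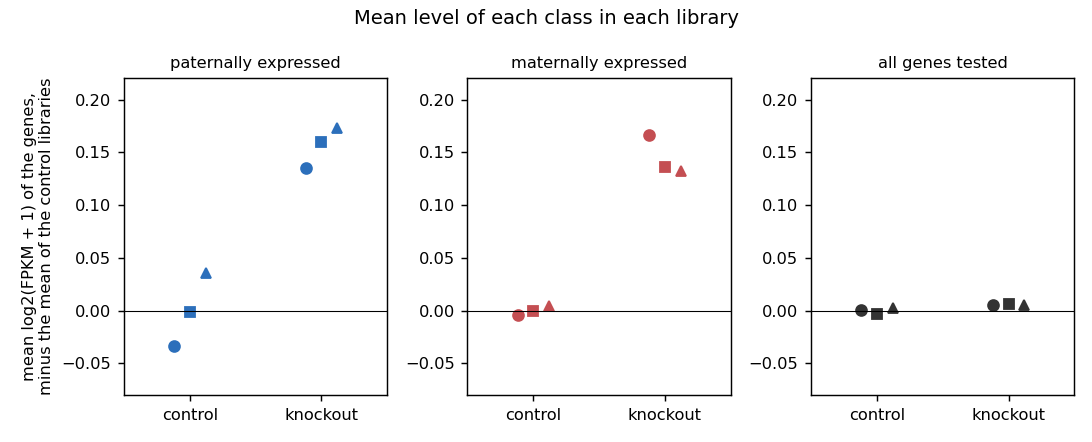
Mean log2(FPKM + 1) over the 15 paternally expressed, the 12 maternally expressed and all 14149 tested genes in each library, minus the mean of the control libraries; circle, square and triangle are replicates 1, 2 and 3. Knockout libraries lie above control libraries in both classes of imprinted genes, and the mean over all genes stays near 0. The classes include Nap1l5, Phlda2 and Slc22a18, which entered the test through their knockout values.

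The 7 members under the filter had at most 0.273 FPKM in any library. Besides Kcnq1ot1 and Snurf these were Ascl2, a trophoblast transcription factor gene (8 reads over the control and 11 over the knockout libraries), Calcr, the calcitonin receptor gene (4 and 6), Magel2 (27 and 38), the placental transporter gene Slc22a3 (27 and 38) and Rasgrf1, a Ras activator gene of neurons (21 and 51). Magel2 and Rasgrf1 had each knockout library above each control library, Magel2 at 0.0607 to 0.129 against 0.143 to 0.157 FPKM and Rasgrf1 at 0.0234 to 0.0457 against 0.05002 to 0.106 FPKM. These values rest on few reads, 11, 5 and 11 against 12, 13 and 13 for Magel2 and 7, 9 and 5 against 10, 20 and 21 for Rasgrf1. The share of all genes under the filter that separate in this way was not determined. Tested by limma without the filter, 0 of the 6 with reads were called, with adjusted p-values of 0.503 (Rasgrf1) to 0.89 (Kcnq1ot1).

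Of 49 other imprinted genes listed, 37 were tested, 3 rose and 0 fell, with a median log2 change of 0.06, beside 1.91% called higher and 0.466% lower over all genes tested. Each knockout library lay above each control library for 7 of the 37 and below for 3, against 11% and 10.4% of all genes tested. Sfmbt2, counted among the 7 and in the median, had means of 0.284 FPKM in control and 0.734 FPKM in knockout libraries. It entered the test through its knockout values. Klf14 went from 0.567, 0.405 and 0.848 FPKM in control to 1.54, 1.99 and 1.74 FPKM in knockout libraries, 2.9 times the control level (limma: adjusted p = 0.0247, log2 change 0.78, SE 0.13). Tfpi2, a protease inhibitor gene that lies between Calcr and Sgce of the Peg10 domain, went from 2.51, 2.38 and 2.699 to 3.45, 3.78 and 3.75 FPKM (ratio 1.45, limma adjusted p = 0.0418). Rian, a non-coding RNA of the Dlk1-Dio3 domain, went from 10.4 ± 0.719 to 15.9 ± 1.05 FPKM (SD, n = 3 each; limma adjusted p = 0.0123). In all 3 genes the groups did not overlap. When libraries were left out singly, Klf14 and Tfpi2 were called in 1 of 6 fits, that without control replicate 3, and Rian in 3. With the sex score as covariate 0 of this list were called by limma.

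Genes that set or keep imprints had 0 of 31 tested members called by limma in either direction. There were 3 at an unadjusted limma p under 0.05, and the median log2 change was -0.02. Over all genes tested, 2.37% were called in either direction and 16.1% had an unadjusted limma p under 0.05. Atrx, a chromatin remodeller gene, had the smallest p, at 4.14 ± 0.207 and 4.97 ± 0.383 FPKM, followed by the cohesin gene Smc1a at 20.2 ± 0.762 and 17.6 ± 1.33 FPKM (SD, n = 3 each; limma adjusted p = 0.234 and 0.261). Both genes are X-linked, and the groups differ in sex, whose part in these values was not tested. Voom on recovered reads also called 0 members of this list.

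Markers of the cell types that a ventricle can hold were summed beside these results. All 7 cardiomyocyte markers were detected, at 3019 to 4137 FPKM in control and 3369.6 to 3649.8 FPKM in knockout libraries, and 0 of them were called by limma, with 0 at an unadjusted p under 0.05. The 9 mesenchyme markers summed to 332 to 509 and 319.6 to 401 FPKM, with 0 called. The 7 endothelial markers summed to 103 to 147 and 123 to 155 FPKM, with 0 called. The 6 neural crest markers, of which 4 were tested, summed to 26.6 to 44.5 and 43.4 to 48.8 FPKM, again with 0 called. Every tested marker of these 2 lists and of the epicardial list had a log2 change above 0. Unadjusted limma p-values were under 0.05 for 2 endothelial, 1 macrophage and 0 neural crest, mesenchyme, epicardial or erythroid markers. Over all genes tested 45.9% had a change above 0, 2.37% were called and 16.1% had an unadjusted limma p under 0.05. The 6 erythroid markers summed to 6692 to 15051 and 6638 to 13650.3 FPKM, the 5 epicardial markers to 152 to 188 and 173 to 195 FPKM and the 6 macrophage markers to 46.6 to 52.7 and 52.6 to 59.4 FPKM, with 0 called. Liver markers summed to at most 2.25 FPKM, with Serpina1a at 0, and skeletal muscle markers to at most 1.64 FPKM. The 8 neuronal markers summed to 2.72 to 4.39 FPKM in control and 3.31 to 4.54 FPKM in knockout libraries, and 1 of them passed the filter. Of the 5 lung and foregut endoderm markers, Nkx2-1 and Shh were at 0, and the list summed to 0.0254 to 0.424 and 0.863 to 1.21 FPKM, most of it Epcam. Epcam, whose control mean of 0.188 FPKM was under the filter so that it was tested through its knockout values, rose to 1.01 FPKM (limma adjusted p = 0.0423), 5.37 times the control level and 10.6 times without control replicate 1. The part of these cell types in the changes of the imprinted genes was not tested.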

How the data were processed

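RNA of 6 libraries of embryonic heart ventricles (3 control, 3 knockout) was measured. TRIzol extracts of total RNA went into a NEBNext Ultra library kit, per the labels' protocols; this kit, in the form named, does not mark strand. Per the submitters' processing notes, the tools were CASAVA, fastp, HISAT2 2.0.5 and featureCounts 1.5.0-p3 with build mm10, while no annotation release is named there. The deposited values are FPKM per gene; of 54532 IDs, 54495 were matched to GENCODE M21.

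Low FPKM values were whole multiples of the value of 1 read: 98.1% to 98.5% of genes under 30 reads were within 0.02 of a whole number. Recovered reads sum to 17898946 to 20076028 per library, and 3 reads in a gene of 1 kb correspond to 0.155 to 0.169 FPKM, a floor that covers counting error only. Genes whose mean reached 0.5 FPKM were tested with limma 3.58.1 (R 4.3.3) on log2(FPKM + 1) with a mean-variance trend, with genotype alone in the model and Benjamini-Hochberg adjustment over all 14149 genes; fold changes on this scale understate the change of low genes. The procedure was tested on simulated data. Single values were also tested by exact permutation (scipy 1.17.1).

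The 35 genes, the classes and the lists were chosen with earlier results of these data known. All 35 genes are named, with their host and neighbour genes, Kdm1a and Cend1 and, from each list, up to 4 called genes or otherwise the 2 with the smallest p. Alternatives were a pseudocount of 0.1, no filter, a mean of at least 5 FPKM, TPM, quantile normalization, rescaling without haemoglobin and mitochondrial genes, each library left out, a replicate block, a sex score (Xist minus Y-linked genes) and limma voom on recovered reads.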

Additional observations from a re-analysis of the deposited data

How the results depend on the processing

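Values are counts of called genes (limma, adjusted p under 0.05) or median log2 changes. Over the whole table, 270 higher genes became 110 without the filter, 132 at a mean of at least 5 FPKM, 93 with the sex score, 409 with voom and 109 to 281 when 1 library was left out. The 66 lower genes became 12 without the filter, 40 under TPM, 23 with the sex score, 102 with voom and 23 to 113 when 1 library was left out. Of the imprinted genes studied, 3 higher became 1 without the filter, 1 with the sex score and 1 to 2 when 1 library was left out. Of the other imprinted genes, 3 higher became 1 without the filter, 1 at 5 FPKM, 1 with the replicate block, 0 with the sex score and 0 to 3 when 1 library was left out. The paternal median of 0.12 became 0.21 under TPM, 0.18 without haemoglobin and mitochondrial genes and 0.10 to 0.15 when 1 library was left out. The maternal median of 0.05 became 0.028 at 5 FPKM, 0.13 under TPM, 0.10 under quantile normalization, 0.11 without haemoglobin and mitochondrial genes, 0.077 with the sex score and 0.037 to 0.11 when 1 library was left out. The median over all genes moved too, from -0.01 to 0.06 under TPM and to 0.04 without haemoglobin and mitochondrial genes. The cause of the other shifts was not tested.

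Among the 28 tested imprinted genes studied, 408 values were recomputed: no uncalled gene became called, 14 calls were lost, and 25 values in 7 uncalled genes changed sign. With 1 library left out the log2 change ran from -0.035 to 0.090 for H19, -0.065 to 0.14 for Zim1, -0.019 to 0.10 for Asb4, -0.13 to 0.039 for Nnat, -0.081 to 0.021 for Gnas and -0.061 to 0.086 for Zrsr1. Under TPM it was 0.021 for Ube3a, 0.047 for Nnat and 0.050 for Gnas. Without haemoglobin and mitochondrial genes it was 0.0094 for Ube3a, 0.036 for Nnat and 0.038 for Gnas. Under quantile normalization it was 0.018 for Nnat and -0.036 for Zrsr1. With the sex score it was -0.014 for Zim1, 0.017 for Gnas and -0.052 for Zrsr1. Deviations of same-numbered libraries correlated at -0.0021, 0.14 and 0.164, so the numbers were not taken to pair the samples, and control replicate 1 correlated best with knockout replicate 2 (0.0798). The replicate block gave 220 higher and 64 lower genes over the table and 3 higher and 0 lower among the imprinted genes studied.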
